A study of Arabidopsis thaliana with 12 samples.

Results

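The SAUR (SMALL AUXIN UP RNA) genes of *Arabidopsis thaliana* were examined as a family across the 4 groups of an RNA-seq experiment on the vacuolar sugar transporter mutant *tmt2*. The deposited table prints 16 genes under a SAUR symbol and most other members only under their locus, so a gene was also counted as a member where RefSeq gives its locus a SAUR name, which added 60 genes. Together these were 76 of the 22953 genes in the table and 76 of the 80 genes that RefSeq names SAUR. *SAUR2*, *SAUR18*, *SAUR39* and *SAUR47* were not analysed here. Of the 76 members, 74 are annotated as SAUR-like auxin-responsive proteins. The exceptions are *AT5G01830*, which the table prints as SAUR21 although it encodes an ARM repeat protein of 674 amino acids, and *SAUR79* (*AT2G35290*), whose product is not characterised. RefSeq gives the name SAUR21 to *AT5G18030* and the name SAUR68 to both *AT1G29490* and *AT1G29510*, and these genes are called by locus below.

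All plants were of the Columbia-0 background, and the mutant was a single T-DNA line with 2 insertions in the last exon of *TMT2*, the gene of a tonoplast monosaccharide transporter. WT seedlings were grown on 1/2 MS medium (WT) or on the same medium with 1% sucrose (WT-Suc). The *tmt2* mutant was grown on medium without sucrose (*tmt2-S*, a class of small seedlings without true leaves) or with 1% sucrose (*tmt2-L-Suc*). The L is the study's name for mutant seedlings that develop normally. Above-ground tissue was taken at 7 days in *tmt2-S* and at 5 days in the other groups by the labels, and the study counts 1 day less from germination. In *tmt2-S* the genotype, the seedling class and the age therefore cannot be told apart. Each group had 3 libraries, which the study describes as biological replicates without saying which cultures or plates they came from, and p-values measure the spread between these libraries. Transcript upstream of the insertions is still made, so *TMT2* itself checks no label: its counts were 1001 to 1184 in *tmt2-S* and 531 to 1182 in *tmt2-L-Suc*, against 334 to 439 in WT and 337 to 551 in WT-Suc.

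SAUR proteins form the largest family of early auxin response genes in plants. Auxin frees the ARF transcription factors from their Aux/IAA repressors, and many SAUR transcripts then rise within minutes. The best studied members, such as SAUR19, bind and inhibit the PP2C.D phosphatases, which otherwise switch off the plasma membrane proton pumps (AHA), so that the wall is acidified and the cell expands. Other members respond to light, temperature, ethylene, abscisic acid or age, and some promote senescence. Most SAUR genes have no intron, their transcripts are short-lived, and many lie side by side as tandem copies.

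The libraries held between 20187961 and 21370053 expected counts, of which the 76 members took between 0.035% and 0.0533%. Levels are given as FPKM (fragments scaled by transcript length and by library size), in the order of replicates 1, 2 and 3. Group differences are log2 fold changes (log2FC) from edgeR's quasi-likelihood test on counts, with Benjamini-Hochberg adjustment over the 18506 genes tested, and a differentially expressed gene (DEG) had an absolute log2FC of at least 1.2 and an adjusted p of at most 0.05. The filter on low counts passed 54 members, 15 of those printed by symbol and 39 of those printed by locus, and left out 22. A member with at most 3 counts in every library of a group was treated as a floor value. This held for 27 members in *tmt2-S*, 13 in *tmt2-L-Suc*, 11 in WT and 11 in WT-Suc, and for 7 in every group. For a floor member the fitted log2FC is no bound, and it is plotted or printed only where it is marked as fitted. Where all libraries of the group were at 0, the fold is a lower bound against 3 counts per library, and otherwise the ratio of summed counts is given with a 95% interval, which covers counting error only. In bulk tissue, fewer cells of a type and less RNA per cell cannot be told apart.

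The labelled tissue was checked against marker genes. The summed FPKM of 5 photosynthesis genes was 60160 to 87670 in *tmt2-S*, 86350 to 96080 in *tmt2-L-Suc*, 86170 to 92060 in WT and 82840 to 107300 in WT-Suc. The 6 root markers summed to between 0.24 and 4.91 FPKM in every library. The 4 shoot meristem markers summed to 8.44 to 11.52 FPKM in *tmt2-S* and 11.46 to 14.08 in WT, and *WUS*, a defining gene of the stem cell niche, was at the floor in all groups. The 4 markers of sugar starvation and senescence in the table summed to 1716 to 6819 FPKM in *tmt2-S*, 142 to 368 in *tmt2-L-Suc*, 585 to 1422 in WT and 904 to 1667 in WT-Suc. The starvation markers were higher in *tmt2-S* than in WT (median log2FC 2.18) and lower in *tmt2-L-Suc* than in WT-Suc (median log2FC -1.91), while array SAUR genes were lower in both comparisons, and their part in the SAUR differences was not tested.

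SAUR genes that lie next to each other, with at most 3 other genes between, were grouped as arrays. There were 9 such arrays with 38 members (RefSeq annotation, build TAIR10.1, also used for all sequences), and 5 of them held 4 or more members, 29 in all. These were *SAUR61* to *SAUR66* with *AT1G29490* and *AT1G29510* on chromosome 1 (10301377 to 10323239), *SAUR26* to *SAUR29* with *SAUR73* on chromosome 3 (976715 to 983768), *SAUR1*, *SAUR3*, *SAUR4*, *SAUR5*, *SAUR49* and *SAUR50* on chromosome 4 (16577180 to 16599568), *SAUR13* to *SAUR16* on chromosome 4 (18121526 to 18131284), and *SAUR19*, *SAUR20*, *AT5G18030*, *SAUR22*, *SAUR23* and *SAUR24* on chromosome 5 (5962773 to 5984308). The coding sequence lies in 1 uninterrupted part in 73 of the 76 members.

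The 6 genes of the chromosome 5 array are near-identical copies, and they are shown so that the differences by which reads can be told apart are seen. Over the 15 pairs, protein identity was 89.0% to 95.6% and coding identity 87.7% to 95.2%, and 44 of 267 gap-free alignment columns varied. A 90-base stretch of the coding strand is printed for each copy, and capitals mark a base that differs from the commonest base at that place, or any base where bases tie. It spans coding bases 111 to 200 (105 to 194 in *AT5G18030*), and 20 of its 90 columns varied.
SAUR19: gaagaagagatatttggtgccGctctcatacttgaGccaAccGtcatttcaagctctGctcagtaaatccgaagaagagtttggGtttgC
SAUR20: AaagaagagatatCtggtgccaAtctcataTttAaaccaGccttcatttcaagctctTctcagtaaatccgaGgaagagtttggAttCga
AT5G18030: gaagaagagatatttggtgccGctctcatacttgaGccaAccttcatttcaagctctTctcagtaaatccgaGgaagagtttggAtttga
SAUR22: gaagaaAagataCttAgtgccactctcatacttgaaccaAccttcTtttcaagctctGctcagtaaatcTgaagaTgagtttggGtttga
SAUR23: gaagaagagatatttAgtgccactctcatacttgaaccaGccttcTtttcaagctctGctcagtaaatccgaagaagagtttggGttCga
SAUR24: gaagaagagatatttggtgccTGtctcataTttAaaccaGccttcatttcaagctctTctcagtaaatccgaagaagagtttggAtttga
These stretches lie at chr5:5963106-5963195, minus strand, chr5:5966381-5966470, minus strand, chr5:5968631-5968720, plus strand, chr5:5974764-5974853, minus strand, chr5:5976140-5976229, plus strand and chr5:5983950-5984039, plus strand, in the order printed. No stretch equalled another, and with reads of 150 bases the expected counts of all 6 genes were whole numbers in every library. Counts were not whole in 7 libraries for *SAUR63* and *AT1G29510*, and in 1 library for *SAUR62* and *SAUR75*, whose proteins are 93.7% identical, so reads were shared out between genes there. *SAUR12* and *SAUR16*, from different arrays, encode proteins that are 88.6% identical.

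The letters TGTCTC, the classical auxin response element bound by ARF proteins, were searched on both strands from 250 bases before to 50 bases after each gene start. They were found in 11 of 76 SAUR genes (14.47%) and in 14.19% of 27443 protein-coding genes. Inside arrays 8 of 38 members held them (21.05%), and outside arrays 3 of 38 (7.89%). The upstream 120 bases of 5 array members that hold the element are printed with it in capitals (TGTCTC, or GAGACA where it lies on the other strand), so that its place and its neighbouring bases can be compared within an array.
SAUR15: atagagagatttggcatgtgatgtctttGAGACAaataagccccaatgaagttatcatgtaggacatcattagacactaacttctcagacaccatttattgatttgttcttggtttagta
SAUR20: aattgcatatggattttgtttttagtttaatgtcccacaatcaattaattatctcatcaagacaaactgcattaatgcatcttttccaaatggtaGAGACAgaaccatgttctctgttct
SAUR22: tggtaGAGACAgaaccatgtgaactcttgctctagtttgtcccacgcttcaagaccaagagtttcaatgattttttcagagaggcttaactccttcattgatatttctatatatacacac
SAUR66: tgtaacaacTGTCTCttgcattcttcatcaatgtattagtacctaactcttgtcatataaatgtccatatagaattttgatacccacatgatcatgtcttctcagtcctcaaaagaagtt
AT1G29510: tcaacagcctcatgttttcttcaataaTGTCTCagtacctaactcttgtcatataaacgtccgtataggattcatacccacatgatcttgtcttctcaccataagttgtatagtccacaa
The coordinates are chr4:18125937-18126056, plus strand, chr5:5966786-5966905, minus strand, chr5:5975088-5975207, minus strand, chr1:10320891-10321010, plus strand and chr1:10322303-10322422, plus strand. *SAUR20* and *SAUR22* shared an unbroken run of at least 20 bases that spans the element and begins at the first printed base of *SAUR22*. *SAUR66* and *AT1G29510* shared one of 24 bases that does not include it, and the bases around their elements differ. The element TGTCGG was found in 2.63% of SAUR genes and 5.12% of all genes. The G-box CACGTG, bound by PIF and other light-related factors, was found in 1.32% and 7.68%. The letters CGTGTG and CGTGCG, bound by the brassinosteroid factor BZR1, were found in 6.58% against 6.52% and in 3.95% against 1.96%, and the G-box and CGTGTG can overlap each other. A match describes the letters in the window and is not evidence of binding.

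*tmt2-S*/WT asked what the mutant phenotype without sugar involves. The SAUR family was mostly lower in *tmt2-S*: 32 of the 54 tested members fell and 5 rose as DEGs, where 12% of all genes tested fell and 7.79% rose. The median log2FC was -2.80, or -2.19 with floor members set at 3 counts per library, against -0.006 over all genes. In 31 members every *tmt2-S* library lay below every WT library, and in 6 members above, against 26.6% and 24.4% of all genes. The summed FPKM of the family was 847, 916 and 1024 in WT and 529.9, 552 and 676 in *tmt2-S*, and the groups did not overlap. The summed counts, which are not scaled by transcript length, did overlap. They were 9145, 9569 and 10410 in WT and 7100, 7874 and 9963 in *tmt2-S*.

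**Figure D1:**
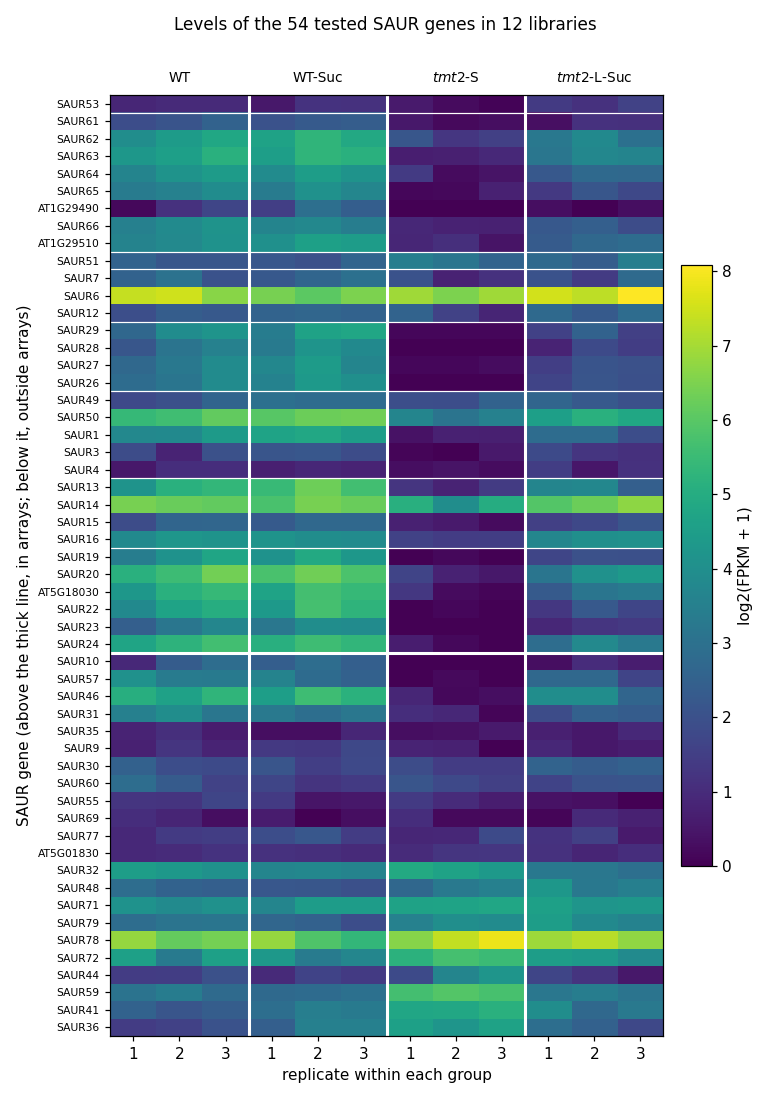
Level of each of the 54 tested SAUR genes (vertical axis) in the 12 libraries (horizontal axis, replicates 1 to 3 of each group), as log2(FPKM + 1) on the colour scale. Genes above the thick line lie in arrays, where the *tmt2-S* columns are darkest (summed level 176 FPKM against 682 in WT), and genes below it lie outside arrays.

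The fall lay mainly in the arrays. Of the 32 tested array members, 28 fell and none rose, with a median log2FC of -4.38 (-4.09 with floor members at 3 counts). Of the 22 tested members outside arrays, 4 fell and 5 rose, with a median of 0.11. Summed over array members, the level was 176 ± 37.2 FPKM in *tmt2-S*, 682 ± 108 in WT, 455 ± 84.7 in *tmt2-L-Suc* and 758 ± 139 in WT-Suc (mean ± SD, n = 3). Outside arrays it was 410.2 ± 82.2, 247 ± 35.2, 259 ± 38.0 and 215 ± 29.7 FPKM in the same order. The highest level summed over array members in *tmt2-S* (206 FPKM) was below the lowest in WT (565 FPKM), whereas outside arrays the lowest in *tmt2-S* (324 FPKM) was above the highest in WT (283 FPKM). Single abundant members that were no DEGs weigh heavily in these sums. Inside arrays *SAUR6* averaged 110.7 FPKM in *tmt2-S* and 148.8 in WT, and outside arrays *SAUR78* averaged 163.9 and 88.3 FPKM. No test was made of the difference between the sets.

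**Figure D2:**
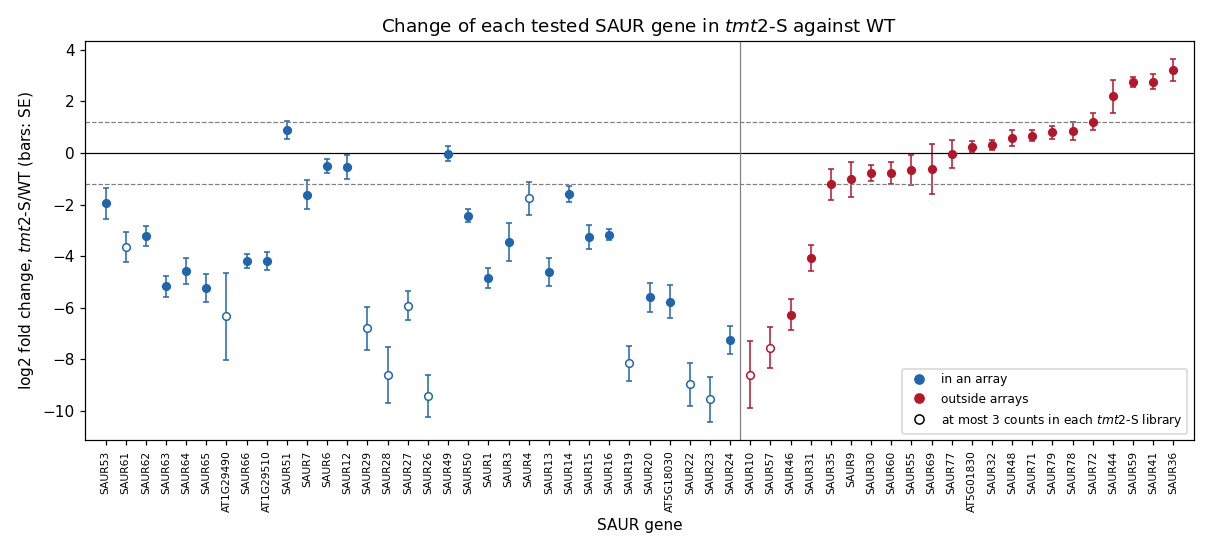
log2 fold change of each tested SAUR gene in *tmt2-S* against WT (vertical axis, bars are SE), array members in chromosome order on the left in blue and the others on the right in red. Open circles mark genes at the floor in *tmt2-S*, whose position is a fitted value and not a bound, dashed lines mark 1.2 in either direction, and 28 of 32 array members lie below the lower line as DEGs.

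The *SAUR19* to *SAUR24* copies, the positive regulators of cell expansion that defined the phosphatase mechanism, fell in 6 of 6 members. Together they averaged a summed 2.01 FPKM in *tmt2-S* and 171 in WT, and 37.0 in *tmt2-L-Suc* and 209.9 in WT-Suc, so that their joint level, which does not depend on how reads were split among copies, was also lowest in *tmt2-S*. *SAUR22* had 126, 243 and 305 counts in WT and 0, 1 and 0 in *tmt2-S*. By summed counts it was 692-fold lower (interval 124 to 27392) in *tmt2-S*, and edgeR gave an adjusted p = 7.64e-06. *SAUR23* had 49, 89 and 133 counts in WT and none in *tmt2-S*, at least 30.6-fold lower (edgeR adjusted p = 1.69e-05). *SAUR19*, the founding member, had 71, 122 and 191 counts in WT and 0, 1 and 0 in *tmt2-S*, 395-fold lower (interval 70.4 to 15623).

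The most abundant copies behaved alike. *SAUR20* measured 34.2, 46 and 81.5 FPKM in WT and 2.19, 0.7 and 0.45 in *tmt2-S* (log2FC -5.61, SE 0.55, edgeR adjusted p = 1.15e-05). *SAUR24* measured 25.6, 36.5 and 49.3 FPKM in WT and 0.55, 0.14 and 0 in *tmt2-S* (log2FC -7.26, SE 0.55, edgeR adjusted p = 2.44e-06). *AT5G18030* measured 18.3, 34 and 42 and 1.48, 0.18 and 0.09 FPKM (log2FC -5.77, SE 0.65, edgeR adjusted p = 2.83e-05), and most of its *tmt2-S* signal, 17 of 20 counts, came from replicate 1. The groups overlapped in none of the 6 copies.

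The *SAUR26* to *SAUR29* genes, of which *SAUR26*, *SAUR27* and *SAUR28* are known for natural variation in growth at warm temperature, fell in 4 of 4 tested members, and *SAUR73* of the same array was too low to test. Their sum was 20.9, 38.1 and 55.6 FPKM in WT and 0.21, 0.21 and 0.31 FPKM in *tmt2-S*, including *SAUR73*. *SAUR26* had 55, 71 and 124 counts in WT and 0 in every *tmt2-S* library, at least 28.2-fold lower (edgeR adjusted p = 1.23e-05). *SAUR28* had 22, 50 and 69 counts in WT and also 0 in every *tmt2-S* library, at least 15.9-fold lower (edgeR adjusted p = 1.32e-04). The remaining 2 genes kept 1 or 2 counts per *tmt2-S* library: *SAUR27* was 66.8-fold lower (interval 25.8 to 247), and *SAUR29* was 126-fold lower (interval 42.8 to 614).

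The *SAUR61* to *SAUR66* array with *AT1G29490* and *AT1G29510*, which includes *SAUR63*, a promoter of hypocotyl and organ elongation, fell in 8 of 8 members (median log2FC -4.38, or -4.19 with floor members at 3 counts). Its sum was 78.7, 102 and 137 FPKM in WT and 7.87, 4.33 and 5.05 FPKM in *tmt2-S*. *SAUR63* measured 18.5, 22.8 and 34.3 FPKM in WT and 0.6, 0.62 and 0.89 in *tmt2-S* (log2FC -5.17, SE 0.40, edgeR adjusted p = 2.46e-06). *SAUR66* measured 10.4, 13.6 and 16.6 and 0.85, 0.72 and 0.69 FPKM (log2FC -4.19, SE 0.28, edgeR adjusted p = 1.13e-06). *AT1G29510* measured 11.4, 13 and 16.3 and 0.81, 1.11 and 0.35 FPKM (log2FC -4.19, SE 0.34, edgeR adjusted p = 3.35e-06). In all 8 members every *tmt2-S* library lay below every WT library and WT replicate 1 was the lowest and WT replicate 3 the highest WT library.

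*SAUR62*, which acts in pollen tube growth, fell from 14.6, 20.7 and 27.4 to 3.5, 1.43 and 1.89 FPKM (log2FC -3.23, edgeR adjusted p = 4.14e-05). *SAUR64* had a log2FC of -4.56 and *SAUR65* of -5.24. *SAUR61* had 19, 24 and 35 counts in WT and 3, 1 and 2 in *tmt2-S*, 13.4-fold lower (interval 5.87 to 37.5). *AT1G29490* had 1, 10 and 18 counts in WT and 0 in each *tmt2-S* library, at least 3.24-fold lower (edgeR adjusted p = 0.0116).

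*SAUR13* to *SAUR16* fell in 4 of 4 members but to different depths. *SAUR15*, the founding auxin-induced SAUR gene of Arabidopsis, measured 2.67, 5.22 and 5.31 FPKM in WT and 0.69, 0.5 and 0.19 in *tmt2-S* (log2FC -3.27, SE 0.46, edgeR adjusted p = 1.37e-04). *SAUR16*, which with *SAUR14* and *SAUR50* is induced by light in cotyledons and repressed by light in the hypocotyl, measured 13.4, 18 and 16.6 and 2.03, 1.68 and 1.79 FPKM (log2FC -3.16, SE 0.20, edgeR adjusted p = 6.46e-07). *SAUR14*, the most abundant member of the arrays after *SAUR6*, measured 85.2, 74.5 and 69.5 and 33.2, 14.6 and 31.1 FPKM (log2FC -1.59, SE 0.32, edgeR adjusted p = 0.00164). Its *tmt2-S* libraries still held 88 to 210 counts. *SAUR13* fell furthest, from 17, 34.1 and 39.8 to 1.37, 0.73 and 1.64 FPKM (log2FC -4.63, SE 0.54, edgeR adjusted p = 3.61e-05).

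In the array of *SAUR1*, *SAUR3*, *SAUR4*, *SAUR5*, *SAUR49* and *SAUR50*, 4 of 5 tested members fell. *SAUR50* measured 41.4, 47.6 and 70 FPKM in WT and 11.8, 7.6 and 10.6 in *tmt2-S* (log2FC -2.43, SE 0.25, edgeR adjusted p = 1.66e-05), and *SAUR1* measured 12.8, 13.2 and 20 and 0.32, 0.66 and 0.63 FPKM (log2FC -4.84, SE 0.39, edgeR adjusted p = 3.18e-06). *SAUR3* fell too (log2FC -3.46). *SAUR4*, with 4, 10 and 10 counts in WT and 2, 3 and 2 in *tmt2-S*, was 3.52-fold lower (interval 1.47 to 9.68). Its call (edgeR adjusted p = 0.0385) was lost without WT replicate 2 or 3, any 1 of the *tmt2-S* replicates, WT-Suc replicate 2 or 3 or *tmt2-L-Suc* replicate 3, with adjusted p values from 0.0506 to 0.1197. *SAUR49* did not follow its neighbours: it measured 2.48, 2.97 and 5.12 FPKM in WT and 2.81, 2.79 and 4.86 in *tmt2-S* (log2FC -0.02, 95% interval -0.65 to 0.61, edgeR adjusted p = 0.961). The array spans 22.4 kb, and *SAUR49* stayed between 2.79 and 4.86 FPKM in *tmt2-S* where *SAUR1* was at most 0.66 FPKM.

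The 4 arrays of 2 or 3 members held 5 tested genes, of which *SAUR7* and *SAUR53* fell. *SAUR53* measured 0.84, 0.96 and 0.97 FPKM in WT and 0.49, 0.18 and 0.06 in *tmt2-S* (log2FC -1.94, SE 0.60, edgeR adjusted p = 0.0198), and its adjusted p was 0.0504 without WT replicate 2, 0.069 without *tmt2-S* replicate 2 and 0.066 without *tmt2-S* replicate 3. *SAUR7* fell (log2FC -1.62, edgeR adjusted p = 0.0331) with overlapping groups, 4.8, 7.3 and 3.07 against 3.15, 0.72 and 1.23 FPKM, and was no DEG without WT replicate 1 or 2 or *tmt2-S* replicate 2 or 3 (adjusted p 0.0612 to 0.135). Its neighbours *SAUR6* (log2FC -0.50, edgeR adjusted p = 0.149) and *SAUR12* (log2FC -0.54, edgeR adjusted p = 0.368) were no DEGs. *SAUR51* had a log2FC of 0.88 (edgeR adjusted p = 0.0557).

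Outside arrays the 4 fallen members were *SAUR10*, *SAUR31*, *SAUR46* and *SAUR57*. *SAUR10* had 11, 51 and 78 counts in WT and 0 in each *tmt2-S* library, at least 15.7-fold lower (edgeR adjusted p = 4.25e-04). *SAUR57* had 115, 68 and 64 counts in WT and 0, 1 and 0 in *tmt2-S*, 254-fold lower (interval 45.1 to 10064), with an edgeR adjusted p = 1.67e-05. *SAUR46* measured 32.6, 23.9 and 37.9 FPKM in WT and 0.84, 0.12 and 0.24 in *tmt2-S* (log2FC -6.28, SE 0.60, edgeR adjusted p = 9.58e-06). *SAUR31* measured 10.6, 14.7 and 8.05 and 1.09, 0.88 and 0.08 FPKM (log2FC -4.07, SE 0.49, edgeR adjusted p = 4.80e-05). All 4 had groups that did not overlap, although the WT range of *SAUR10* was wide because replicate 1 held few counts.

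The 5 members that rose all lie outside arrays. They are 9.26% of the tested members, near the 7.79% of all genes that rose. *SAUR36*, also known as SAG201 and a promoter of leaf senescence, measured 1.73, 1.94 and 3.15 FPKM in WT and 23.1, 17.8 and 24.4 in *tmt2-S* (log2FC 3.23, SE 0.41, edgeR adjusted p = 7.12e-05). *SAUR41*, whose subfamily promotes cell expansion, measured 4.85, 3.4 and 4.27 and 26.6, 27.8 and 33.7 FPKM (log2FC 2.77, SE 0.30, edgeR adjusted p = 2.24e-05). *SAUR59* measured 7.51, 9.46 and 6.01 and 50.2, 59.6 and 51.7 FPKM (log2FC 2.76, SE 0.20, edgeR adjusted p = 2.09e-06). These 3 were the clearest rises, with every *tmt2-S* library several times above every WT library.

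*SAUR72*, of the *SAUR41* subfamily, measured 23.3, 8.97 and 23.1 FPKM in WT and 35.8, 51.5 and 45 in *tmt2-S* (log2FC 1.22, SE 0.32, edgeR adjusted p = 0.00864), just over the fold limit. *SAUR71* of the same subfamily passed the adjusted p but not the fold limit, at 16.5, 13.6 and 16.1 against 24.3, 24.8 and 26.8 FPKM (log2FC 0.68, SE 0.22, edgeR adjusted p = 0.0264), and *SAUR79* did likewise (log2FC 0.81, SE 0.26, edgeR adjusted p = 0.0226). Both lost significance without certain libraries: *SAUR71* without WT replicate 2 or 3 or *tmt2-S* replicate 3 (adjusted p 0.0652 to 0.0898), and *SAUR79* without WT replicate 1 or 3 or *tmt2-S* replicate 2 or 3 (adjusted p 0.0534 to 0.0759). *SAUR44* measured 1.69, 1.79 and 3.02 and 2.54, 11.8 and 17.5 FPKM (log2FC 2.20, SE 0.62, edgeR adjusted p = 0.0127), its groups overlapped through *tmt2-S* replicate 1, and without *tmt2-S* replicate 3 its log2FC was 1.61 with an edgeR adjusted p of 0.067. The fourth gene of the subfamily, *SAUR40*, was too low to test, with 3, 8 and 10 counts in *tmt2-S* and at most 1 in any other library. *SAUR45*, also not tested, had 14, 11 and 8 counts in *tmt2-S*, 1, 3 and 3 in WT and 8, 2 and 7 in *tmt2-L-Suc*.

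**Figure D3:**
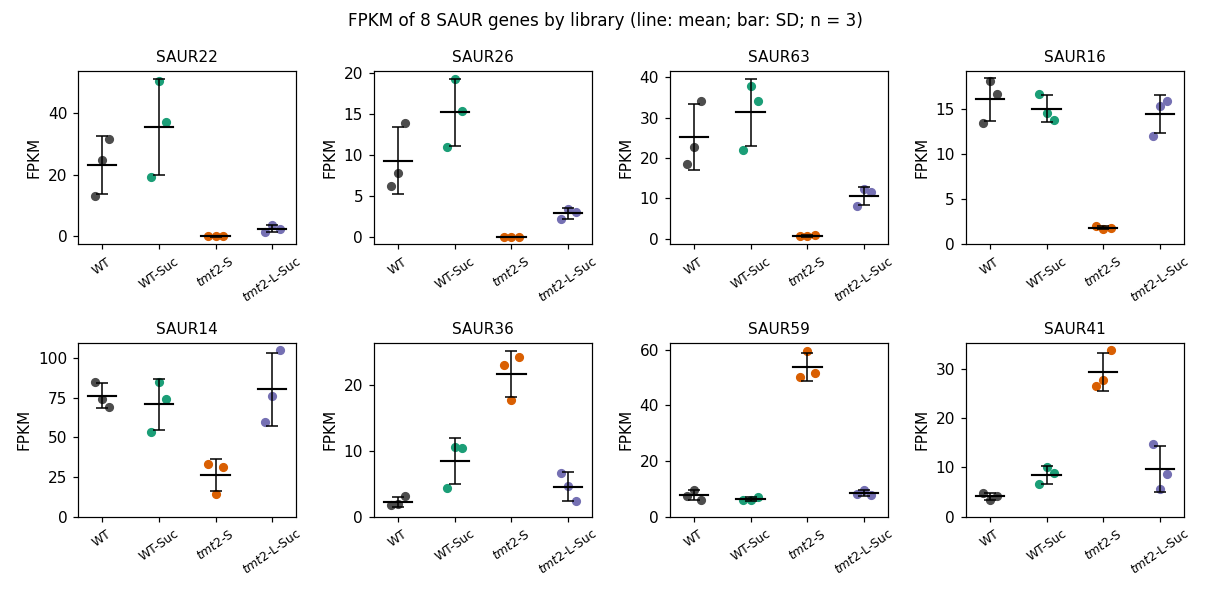
FPKM of 8 SAUR genes in each library (points), with the mean (line) and SD (bar) of the 3 libraries of each of the 4 groups, each panel on its own linear axis. *SAUR22*, *SAUR26* and *SAUR63* were lowest in *tmt2-S* and intermediate in *tmt2-L-Suc*, *SAUR14* and *SAUR16* were low in *tmt2-S* alone, and *SAUR36*, *SAUR41* and *SAUR59* were highest in *tmt2-S*.

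Of the 54 tested members, 17 were no DEGs in *tmt2-S*/WT. The 2 most abundant members of the family were among them. *SAUR6* measured 166, 182 and 98.9 FPKM in WT and 122, 88.2 and 122 in *tmt2-S*, with overlapping groups. *SAUR78*, which is reported to interact with ethylene receptors, measured 112, 70.9 and 82.5 and 98.2, 162 and 232 FPKM (log2FC 0.85, SE 0.36, edgeR adjusted p = 0.0709), and its 3 *tmt2-S* libraries spread more than its WT libraries. An adjusted p above 0.5 was found for *SAUR49*, for *SAUR77* (log2FC -0.03, 95% interval -1.21 to 1.14, edgeR adjusted p = 0.966) and for *SAUR69* (log2FC -0.62, 95% interval -2.70 to 1.46, edgeR adjusted p = 0.632). The intervals of the last 2 reach 1.2 in at least 1 direction, that of *SAUR49* does not. *AT5G01830*, the ARM repeat gene printed as SAUR21, measured 0.89, 0.98 and 1.29 and 1.01, 1.39 and 1.44 FPKM (log2FC 0.25, edgeR adjusted p = 0.389).

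Of the 22 members that were not tested, 7 were at the floor in every group. Among the others, *SAUR33* had 4, 2 and 1 counts in WT and 6, 5 and 6 in *tmt2-S*, and *SAUR37* had 6, 10 and 9 counts in WT and 0 in every *tmt2-S* library. *SAUR76*, an auxin and ethylene responsive member that acts with *SAUR78*, had 6, 7 and 13 counts in WT and 0, 0 and 2 in *tmt2-S*. *SAUR8* had 5, 8 and 7 and 2, 0 and 0 counts. These 4 genes and *SAUR40* and *SAUR45* were picked after their values were seen, and no fold was drawn from them. Over all members, 14 had no count in any *tmt2-S* library, against 7 in *tmt2-L-Suc*, 3 in WT and 4 in WT-Suc, and 10 members at the floor in *tmt2-S* had a mean of 20 or more counts in WT. The shares of all genes without counts or at the floor were not computed.

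*tmt2-S*/*tmt2-L-Suc* compared the mutant without and with sucrose, again with differences in age and seedling class, which cannot be told apart from sucrose. Here 29 members were lower and 7 higher in *tmt2-S*, where 12.4% and 10.6% of all genes were, with a median log2FC of -2.03 (-1.65 with floor members at 3 counts). Array members counted 25 lower and none higher of 32, and members outside arrays 4 lower and 7 higher of 22. *SAUR22*, with 15, 38 and 23 counts in *tmt2-L-Suc*, was 69.8-fold lower (interval 12.2 to 2794) in *tmt2-S*. *SAUR26*, with 20, 32 and 28 counts in *tmt2-L-Suc*, was at least 8.24-fold lower. *SAUR16* measured 12, 15.3 and 15.9 FPKM in *tmt2-L-Suc* (log2FC -2.91, edgeR adjusted p = 8.07e-07) and *SAUR14* 59.8, 76.1 and 105 FPKM (log2FC -1.57, edgeR adjusted p = 0.00133).

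The 7 members higher in *tmt2-S* than in *tmt2-L-Suc* were the 5 above, *SAUR32* and *SAUR55*. They are 12.96% of the tested members, near the 10.6% of all genes. *SAUR59* measured 8.17, 9.7 and 7.67 FPKM in *tmt2-L-Suc* (log2FC 2.72, edgeR adjusted p = 1.03e-06) and *SAUR36* 6.66, 4.71 and 2.39 FPKM (log2FC 2.32, edgeR adjusted p = 3.47e-04). *SAUR41* measured 14.7, 5.63 and 8.73 FPKM (log2FC 1.68, edgeR adjusted p = 3.56e-04). *SAUR72* had a log2FC of 1.32 and *SAUR44* of 2.98. *SAUR32*, a member with a role in the apical hook and hypocotyl, was at its lowest in *tmt2-L-Suc*: it measured 28.8, 24.4 and 19.5 FPKM in *tmt2-S*, 21.5, 19 and 16 in WT and 8.36, 8.27 and 6.82 in *tmt2-L-Suc* (log2FC 1.68, SE 0.19, edgeR adjusted p = 2.11e-05 for *tmt2-S*/*tmt2-L-Suc*). *SAUR55* measured 1.58, 1 and 0.58 and 0.32, 0.26 and 0 FPKM (log2FC 2.48, edgeR adjusted p = 0.0146), and without *tmt2-S* replicate 1 the log2FC was 2.06 with an adjusted p of 0.0527.

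WT-Suc/WT, the effect of sucrose in the WT at the same age, moved 1 member of 54 up and none down, where 0.0811% of all genes rose and 0.902% fell. By edgeR 6 members were higher and 4 lower at an unadjusted p under 0.05, and the share of all genes at that limit was not computed. DESeq2 also called 1 member up and none down. Without WT replicate 3 the calls were 1 up and 2 down. The median log2FC was 0.08. That member was *SAUR36*, at 1.73, 1.94 and 3.15 FPKM in WT and 4.43, 10.6 and 10.5 in WT-Suc (log2FC 1.85, SE 0.41, edgeR adjusted p = 0.0471). The groups did not overlap, but the call was near the limit: it was lost without WT replicate 1 or 2, WT-Suc replicate 2 or 3, any 1 of the *tmt2-S* replicates or *tmt2-L-Suc* replicate 2, with adjusted p values from 0.0513 to 0.215. For *SAUR22* the log2FC was 0.58 (95% interval -0.27 to 1.43), for *SAUR26* 0.66 (-0.07 to 1.39) and for *SAUR63* 0.26 (-0.32 to 0.85).

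*tmt2-L-Suc*/WT set the sugar-fed mutant against the WT without sugar, at the same age. No member was higher and 25 were lower as DEGs, where 1.7% of all genes were higher and 3.58% lower, with a median log2FC of -0.94. At an unadjusted p under 0.05 edgeR had 4 members higher and 28 lower, and the share of all genes at that limit was not computed. DESeq2 called none higher, and without *tmt2-L-Suc* replicate 2 edgeR called 3 higher. The count of 25 DEGs fell to 14 without WT replicate 3, to 13 without *tmt2-L-Suc* replicate 1 and to 13 without *tmt2-L-Suc* replicate 3. All 6 copies of the *SAUR19* to *SAUR24* array were among the 25, with *SAUR22* at 1.5, 3.75 and 2.26 FPKM in *tmt2-L-Suc* (log2FC -3.28, SE 0.47, edgeR adjusted p = 0.00156). *SAUR32* (log2FC -1.37), *SAUR55* (log2FC -3.14), *SAUR31* (log2FC -1.62) and *SAUR57* (log2FC -1.48) were lower as DEGs against WT and no DEGs against WT-Suc. Their mean FPKM was also lower in *tmt2-L-Suc* than in WT-Suc. It was 7.82 against 11.7 for *SAUR32*, 0.193 against 0.797 for *SAUR55*, 3.85 against 7.83 for *SAUR31* and 4.46 against 7.30 for *SAUR57*. *SAUR32* passed the adjusted p against WT-Suc but not the fold limit, and lost it without any 1 of 7 libraries (edgeR adjusted p 0.05003 to 0.165). Without WT replicate 3 or *tmt2-L-Suc* replicate 3 *SAUR55* lost its call against WT (adjusted p 0.0592 and 0.0584). *SAUR31* lost it without WT replicate 1 or 2 or *tmt2-L-Suc* replicate 1 or 3 (adjusted p 0.0544 to 0.0967), and *SAUR57* without any 1 of the WT replicates, WT-Suc replicate 2, *tmt2-S* replicate 2 or *tmt2-L-Suc* replicate 1 or 3 (adjusted p 0.0555 to 0.162). *SAUR41* (log2FC 1.09, edgeR adjusted p = 0.0339) and *SAUR48* (log2FC 1.13, edgeR adjusted p = 0.0387) passed the adjusted p in the other direction but not the fold limit, and both lost it without any 1 of the WT replicates or *tmt2-L-Suc* replicate 1 or 3 (adjusted p 0.0555 to 0.184), *SAUR48* also without WT-Suc replicate 2 or 3 or *tmt2-S* replicate 2.

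*tmt2-L-Suc*/WT-Suc compared the genotypes on the same sugar medium and at the same age, and it shares no library with *tmt2-S*/WT. Of the 54 members, 23 were lower and 3 higher, where 2.91% and 4.29% of all genes were, with a median log2FC of -1.03 against -0.018 over all genes. The share of members that were higher (5.56%) is near that of all genes. Inside arrays 21 of 32 were lower and 1 higher (median -1.88), and outside arrays 2 of 22 were lower and 2 higher (median -0.01). Of the 32 members that fell in *tmt2-S*/WT, 23 were also lower here and none higher. Of the 5 that rose none was called here, and of the 17 others 3 were higher. The matching share among all genes that fell in *tmt2-S*/WT was not computed, so this agreement cannot be called particular to SAUR genes.

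Members of 3 arrays were lower throughout. The *SAUR19* to *SAUR24* copies were lower in 6 of 6 (log2FC -3.85 to -2.11). *SAUR22* measured 19.3, 50.5 and 37.2 FPKM in WT-Suc against 1.5, 3.75 and 2.26 in *tmt2-L-Suc* (log2FC -3.85, SE 0.47, edgeR adjusted p = 4.94e-04), and *SAUR20* 53.3, 79.6 and 54 and 7.81, 16.2 and 19.1 FPKM (log2FC -2.12, SE 0.40, edgeR adjusted p = 0.00415). *SAUR19*, *AT5G18030*, *SAUR23* and *SAUR24* had log2FC of -2.98, -2.52, -3.27 and -2.11. No *tmt2-L-Suc* library reached the lowest WT-Suc library in any of the 6. The copies vary together between libraries, and the share of all genes without overlap was not computed for these groups.

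*SAUR26* to *SAUR29* were lower in 4 of 4 (log2FC -2.96 to -2.44). *SAUR26* measured 11, 19.2 and 15.4 FPKM in WT-Suc against 2.15, 3.41 and 2.96 in *tmt2-L-Suc* (log2FC -2.44, SE 0.36, edgeR adjusted p = 0.00200), *SAUR29* 9.61, 24.2 and 26.6 and 1.94, 4.81 and 1.91 FPKM (log2FC -2.82, SE 0.51, edgeR adjusted p = 0.00338), and *SAUR27* and *SAUR28* had log2FC of -2.46 and -2.96. The *SAUR61* to *SAUR66* array was lower in 8 of 8 (median -1.88), from *SAUR63* at 22.1, 37.9 and 34.2 against 8.12, 12.4 and 11.5 FPKM (log2FC -1.57, SE 0.28, edgeR adjusted p = 0.00327) to *AT1G29490*, which with 2, 0 and 2 counts in *tmt2-L-Suc* and 15, 55 and 35 in WT-Suc was 27.9-fold lower (interval 10.6 to 104). *SAUR61* (log2FC -2.01) had an adjusted p of 0.0506 without WT-Suc replicate 2. *SAUR62*, *SAUR64*, *SAUR65*, *SAUR66* and *AT1G29510* had log2FC of -1.67, -1.82, -2.39, -1.66 and -1.94.

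The light-related genes split. *SAUR14* measured 53.5, 85.1 and 74.3 FPKM in WT-Suc against 59.8, 76.1 and 105 in *tmt2-L-Suc* (log2FC 0.15, 95% interval -0.51 to 0.82, edgeR adjusted p = 0.756), and *SAUR16* 16.7, 14.6 and 13.8 and 12, 15.3 and 15.9 FPKM (log2FC -0.08, 95% interval -0.44 to 0.28, edgeR adjusted p = 0.776). Their neighbour *SAUR13* was lower, at 42.6, 78.7 and 48.7 against 11.9, 12.3 and 4.5 FPKM (log2FC -2.59, SE 0.41, edgeR adjusted p = 0.00188), as were *SAUR50* (log2FC -1.39, edgeR adjusted p = 0.0026) and *SAUR1* (log2FC -2.30, edgeR adjusted p = 6.37e-04). *SAUR15* had lower values in all *tmt2-L-Suc* libraries, 1.89, 2.34 and 3.35 against 3.84, 5.7 and 5.68 FPKM, without passing the test (log2FC -1.03, edgeR adjusted p = 0.0657).

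Outside arrays *SAUR10* measured 4.34, 6.49 and 4.5 FPKM in WT-Suc against 0.24, 1.02 and 0.55 in *tmt2-L-Suc* (log2FC -3.08, SE 0.67, edgeR adjusted p = 0.0108), and *SAUR46* 22.1, 46.8 and 34.8 and 14.6, 14.7 and 5.22 FPKM (log2FC -1.62, SE 0.40, edgeR adjusted p = 0.0153). *SAUR46* lost its call without WT-Suc replicate 2 (adjusted p 0.0797) or *tmt2-L-Suc* replicate 3 (adjusted p 0.0527). The 3 higher members were *SAUR6*, at 84.9, 64.7 and 89.6 FPKM in WT-Suc against 185, 155 and 271 in *tmt2-L-Suc* (log2FC 1.32, SE 0.27, edgeR adjusted p = 0.00593), *SAUR48*, at 3.57, 3.49 and 2.94 and 18.5, 8.48 and 10.2 FPKM (log2FC 1.86, SE 0.33, edgeR adjusted p = 0.00323), and *SAUR79*, at 5.41, 4.74 and 2.77 and 21.7, 13.4 and 10.9 FPKM (log2FC 1.80, SE 0.27, edgeR adjusted p = 0.00131). The genes that rose in *tmt2-S* gave *SAUR36* -0.94 (95% interval -1.77 to -0.10), *SAUR41* 0.14 (-0.48 to 0.76) and *SAUR59* 0.41 (-0.02 to 0.84) on the log2 scale, with none called.

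**Figure D4:**
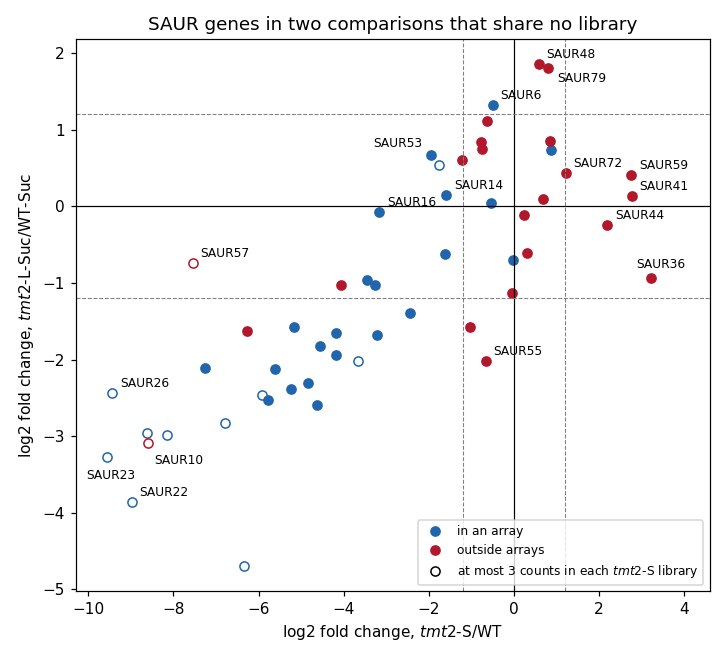
Each point is a tested SAUR gene, placed by its log2 fold change in *tmt2-S*/WT (horizontal axis) and in *tmt2-L-Suc*/WT-Suc (vertical axis), blue in arrays and red outside, open where the gene was at the floor in *tmt2-S*, with dashed lines at 1.2 in either direction. Of the 32 genes called lower on the horizontal axis, 29 lie below 0 on the vertical axis and 23 are called there, while *SAUR14* and *SAUR16* lie near 0 (0.15 and -0.08). The matching share among all genes was not computed.

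Whether the media differed by another amount in the mutant than in the WT was tested as the interaction. This is the log2FC of *tmt2-L-Suc*/*tmt2-S* minus that of WT-Suc/WT. It includes the age and the seedling class of *tmt2-S*, which cannot be told apart from a response to sucrose. Of 54 members, 29 passed the DEG limits with a more positive effect in the mutant and 3 with a more negative one, where 12% and 8.19% of all genes were, with a median of 1.82. Inside arrays 24 of 32 were more positive and none more negative. *SAUR16*, for example, had a difference of 3.09 (SE 0.26, edgeR adjusted p = 2.84e-05), and *SAUR63* of 3.60 (SE 0.50, edgeR adjusted p = 3.42e-04). The 3 negative members were *SAUR36* (-4.17, SE 0.56), *SAUR41* (-2.63, SE 0.41) and *SAUR59* (-2.36, SE 0.28). *SAUR30*, no DEG in any comparison of groups, had a difference of 1.60 (SE 0.44, edgeR adjusted p = 0.0146).

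Other genes of the pathway were read from lists of receptors, repressors, transcription factors, enzymes, transporters, phosphatases, pumps and growth regulators. Of 98 tested genes in them, 1 rose and 33 fell as DEGs in *tmt2-S*/WT, where 7.79% of all genes rose and 12% fell, so that 1 call among 6 receptors or 15 response factors is near that share. Upstream of the SAUR genes, 7 of 10 tested auxin synthesis genes fell, among them *YUC9*, a flavin monooxygenase of the last step, from 89 to 322 counts in WT to at most 2 in *tmt2-S*, and *YUC3*, from 1 to 30 counts to 0. Of the auxin transporters 6 of 10 fell, such as the efflux carriers *PIN7* (27.6 ± 4.84 against 2.48 ± 0.365 FPKM, log2FC -3.51) and *PIN6* (log2FC -2.62). Among 6 receptors, *AFB1* fell (11.8 ± 4.95 against 2.66 ± 0.459 FPKM, log2FC -2.17).

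Of the Aux/IAA repressors, themselves early auxin response genes, 11 of 25 tested members fell, and *IAA5* (6 to 47 counts in WT) and *IAA6* (12 to 44 counts) had no count in any *tmt2-S* library. Of 15 auxin response factors only *ARF11* fell as a DEG (log2FC -2.07). Of the 15, 7 were lower and 0 higher at an adjusted p of at most 0.05, *ARF11* included, and the share of all genes at that limit was not computed. Of the auxin-inducible GH3 enzymes, which conjugate auxin, 3 of 6 fell, among them *GH3.1* (4 to 16 counts in WT, at most 2 in *tmt2-S*) and *DFL1* (log2FC -3.09). Of 8 light and brassinosteroid regulators, *PIF4* (log2FC -3.03) and *BES1* (log2FC -1.58) fell and *HY5*, which promotes light development, rose (log2FC 1.34).

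Next come the phosphatases that SAUR proteins bind and the pumps that these control. Of 9 PP2C.D phosphatases, the inhibited targets, *PP2C.D1* (log2FC -3.79, edgeR adjusted p = 1.82e-05) and *PP2C.D7* (log2FC -2.69, edgeR adjusted p = 4.59e-04) fell, and the list median was 0.24. *PP2C.D4* (log2FC 0.53), *PP2C.D6* (log2FC 0.60) and *PP2C.D8* (log2FC 0.56) passed the adjusted p in the other direction without reaching the fold limit. Of 9 tested proton pumps none was a DEG, with a list median of -0.09. *AHA1* (log2FC 1.06, edgeR adjusted p = 7.61e-05) and *AHA2* (log2FC -0.57, edgeR adjusted p = 0.0195), the main pumps of the plant, passed the adjusted p in opposite directions without reaching the fold limit. In *tmt2-L-Suc*/WT-Suc, 2 of the 98 list genes were higher and 12 lower as DEGs, where 4.29% and 2.91% of all genes were, and 5 of the 12 were Aux/IAA genes. These 14 calls became 9 without WT-Suc replicate 2 and 6 without *tmt2-L-Suc* replicate 3.

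The called members differed in protein length, a property the test did not use. The 32 members lower in *tmt2-S*/WT encode proteins with a median of 103 amino acids (86 to 186), the 5 higher members a median of 147 (114 to 170), and the 17 others a median of 131 (104 to 674). Of the 32 lower members 28 lie in arrays, whereas none of the 5 higher and 4 of the 17 others do. Length and array membership go together in this family, and no test was made.

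The libraries of a group also ordered the array genes in a common way. Among the 32 tested array members WT replicate 1 was the lowest WT library in 27 and WT replicate 3 the highest in 23, and among WT-Suc libraries replicate 1 was lowest in 25 and replicate 2 highest in 24. The members of an array therefore did not vary independently between libraries, and a count of array members is not a count of independent results. Leaving out any 1 library kept the number of SAUR members called in *tmt2-S*/WT between 33 and 39.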

How the data were processed

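Above-ground tissue of 12 Arabidopsis samples, 3 in each of 4 groups, was profiled by poly(A) RNA-seq on an MGISeq sequencer with reads of 150 bases. Per the study's methods, the authors aligned the reads to TAIR 10.1 with Bowtie2 and estimated gene expression with RSEM. The authors deposited RSEM expected counts per gene, which are estimates and not normalized, and they deposited FPKM values, which are scaled by transcript length and library total. The 12 TPM columns and 12 columns of averages were not used here. RSEM splits reads that match several genes, so values of near-identical copies can depend on that split. The submitters' notes also list mouse genome builds, for which no role was given.

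The expected counts, rounded to integers, were tested with edgeR 4.0.16 (quasi-likelihood F-test, TMM, filterByExpr, 4 group means over all 12 libraries) in R 4.3.3, with Benjamini-Hochberg adjustment over all 18506 genes tested. The SE was the absolute log2FC divided by the square root of F. The biological coefficient of variation was 0.209, and replicates differed by more than counting noise (chi-square per degree of freedom 11.3 to 82.66). The script was tested on simulated data. Alternatives were median-of-ratios scaling, DESeq2 1.42.0, limma 3.58.1 on log2(FPKM + 1), no filter, at least 10 counts in every library, a replicate block, each 2 groups fitted alone, summed counts of near-identical copies, and leaving out each library. Genes were named where they were DEGs in comparisons other than those of *tmt2-S*, higher in *tmt2-S*, among the 8 most abundant or the 8 with the smallest p or lowest log2FC, at the floor in *tmt2-S* with a mean of 20 counts in WT, above an adjusted p of 0.5, or named by the study, and array members were named together. The members, lists and rules were chosen with earlier results of these data known.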

Additional observations from a re-analysis of the deposited data

Results flagged for a closer look

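The interaction test called 32 members, 29 with a more positive difference between the media in the mutant and 3 with a more negative one. Over all genes tested 12% and 8.19% were called, and the 3 negative members are 5.56% of those tested. Each is given with the log2 difference, that is *tmt2-L-Suc*/*tmt2-S* minus WT-Suc/WT (edgeR, adjusted p from 2.84e-05 to 0.0451). The contrast includes the age difference and the seedling class of *tmt2-S*, which cannot be told apart from a response to sucrose. The members of an array vary together between libraries.

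Above the floor in *tmt2-S*, the difference was positive in *SAUR24* (5.15), *SAUR46* (4.66), *SAUR63* (3.60), *SAUR20* (3.48), *AT5G18030* (3.24), *SAUR16* (3.09), *SAUR31* (3.04), *SAUR65* (2.85), *SAUR64* (2.75), *SAUR53* (2.62), *SAUR1* (2.54), *SAUR66* (2.53), *AT1G29510* (2.25), *SAUR15* (2.24), *SAUR13* (2.05), *SAUR6* (1.82), *SAUR14* (1.74), *SAUR30* (1.60) and *SAUR62* (1.55). At the floor in *tmt2-S* the value is fitted, depends on the prior count and is no bound, which holds for *SAUR26* (7.00), *SAUR57* (6.81), *SAUR23* (6.28), *SAUR28* (5.66), *SAUR10* (5.51), *SAUR19* (5.18), *SAUR22* (5.12), *SAUR29* (3.98), *SAUR27* (3.46) and *SAUR4* (2.30). It was negative in *SAUR36* (-4.17), *SAUR41* (-2.63) and *SAUR59* (-2.36), which also rose in *tmt2-S*/WT. For *SAUR6*, the most abundant member, *tmt2-L-Suc* lay above *tmt2-S* (log2FC -0.83 for *tmt2-S*/*tmt2-L-Suc*) and WT-Suc lay below WT (log2FC -0.99, edgeR adjusted p = 0.081). *SAUR36* was the 1 member with a call for sucrose in WT (log2FC 1.85), and its value in the mutant ran the other way.

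Of these calls, *SAUR53* was lost without *tmt2-S* replicate 2 (adjusted p 0.0515). *SAUR62* was lost without WT or WT-Suc replicate 3, WT replicate 2, WT-Suc replicate 1, *tmt2-S* replicate 2 or 3 or *tmt2-L-Suc* replicate 2 (adjusted p up to 0.0771). *SAUR13* was lost without those 7 libraries, *tmt2-S* replicate 1 or *tmt2-L-Suc* replicate 1 (up to 0.0997). *SAUR4* was lost without any 1 library other than WT replicate 1 and *tmt2-L-Suc* replicate 2 (up to 0.121), and *SAUR10* without any 1 other than WT replicate 1 and *tmt2-L-Suc* replicate 1 (up to 0.0908).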

How the results depend on the processing

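Requiring at least 10 counts in every library left 20 SAUR genes to test and removed the genes that fell to the floor. The numbers called were then 8 in *tmt2-S*/WT, 10 in *tmt2-S*/*tmt2-L-Suc*, 3 in *tmt2-L-Suc*/WT, 6 in *tmt2-L-Suc*/WT-Suc and 10 for the interaction, and in the other auxin lists 2 in *tmt2-L-Suc*/WT and 8 in *tmt2-L-Suc*/WT-Suc. limma on log2(FPKM + 1) called 20 SAUR genes for the interaction, 0 in WT-Suc/WT, and in the other lists 0 in WT-Suc/WT, 8 in *tmt2-L-Suc*/WT-Suc and 17 for the interaction. The pseudocount shrinks low genes, and *SAUR10*, for example, had an interaction of 0.12. In WT-Suc/WT the fit of the 2 groups alone called 0 SAUR genes, and DESeq2 called 2 genes of the other lists.

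With each library left out in turn, the number of SAUR genes called was 33 to 39 in *tmt2-S*/WT, 36 to 40 in *tmt2-S*/*tmt2-L-Suc*, 0 to 3 in WT-Suc/WT, 13 to 29 in *tmt2-L-Suc*/WT, 24 to 29 in *tmt2-L-Suc*/WT-Suc and 28 to 32 for the interaction. In the other lists it was 29 to 37 in *tmt2-S*/WT, 23 to 27 in *tmt2-S*/*tmt2-L-Suc*, 0 to 7 in WT-Suc/WT, 2 to 7 in *tmt2-L-Suc*/WT, 6 to 19 in *tmt2-L-Suc*/WT-Suc and 23 to 27 for the interaction. Samples of different groups share only a replicate number: the correlation of same-numbered deviations was -0.325 to 0.331, and the study names no pairing. A replicate block called 36, 36, 0, 24, 26 and 31 SAUR genes in the same order of comparisons, and 0 in WT-Suc/WT among the other lists.

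Changes of sign were limited to uncalled values: with 1 library left out, *SAUR14* ranged from -0.066 to 0.352 and *SAUR16* from -0.174 to 0.067 in *tmt2-L-Suc*/WT-Suc, and *SAUR49* from -0.327 to 0.298 and *SAUR77* from -0.793 to 0.243 in *tmt2-S*/WT, where limma gave *SAUR49* 0.00. Over the 185 single-gene values, 3288 alternative values kept direction and call, 171 lost the call, 24 gained it and 11 changed sign. Low counts limit the floor genes. Their fold is a lower bound where all libraries of the group were at 0, and otherwise a ratio of summed counts whose interval covers counting error only.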
